A study of Mus musculus with 8 samples.

Results

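The 10 genes described here encode amino acid transporters of the liver: Slc3a1, Slc3a2, Slc7a2, Slc7a9, Slc38a2, Slc38a3, Slc38a4, Slc43a1, Slc6a9 and Slc16a10. They were taken by name from the 25690 genes of an expression table of mouse liver. Slc3a1 was selected on its FPKM in knockout against wildtype libraries, as one of the larger rises, so its difference between genotypes is described without a test. The other 9 were listed with earlier results of these data known. The study compared 4 liver RNA libraries labelled wildtype control with 4 labelled hepatic FOXO1 knockout. FoxO1 is a forkhead transcription factor that insulin signalling excludes from the nucleus. The numbers in the titles were 1, 3, 10 and 12 for the wildtype libraries and 3, 9, 10 and 11 for the knockout libraries. The strain, age, sex, feeding state, floxed allele and driver of the deletion are not stated in the labels used here. Whether each library is a different mouse is not stated either, and p-values then refer to the spread among these libraries, which may be technical.

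Hepatocytes take up amino acids from portal blood for protein synthesis, glucose production and urea, and release some again. SLC3 proteins are heavy chains that do not carry substrate themselves but bring an SLC7 light chain to the membrane. Slc3a1 pairs with Slc7a9 to take up cystine and dibasic amino acids in kidney and gut, and mutations in either human gene cause cystinuria. Slc3a2 pairs with several other SLC7 light chains. Slc7a2 carries cationic amino acids without a heavy chain. The sodium-coupled SLC38 proteins carry small neutral amino acids and glutamine. Slc6a9 carries glycine, and Slc43a1 and Slc16a10 let large neutral and aromatic amino acids pass in both directions.

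Expression was given as FPKM, fragments scaled to transcript length and to the number of mapped fragments, and can be compared between genes because it is scaled to length. Estimated depth ran from 26.8 M fragments (wildtype 3) to 34.9 M (knockout 11). Foxo1 itself lay between 3.01 and 3.81 FPKM in wildtype and between 0.212 and 0.375 FPKM in knockout libraries. Hepatocyte markers were abundant in all libraries, although Alb was listed at 0 in knockout 10 alone. Acute phase transcripts were high in knockouts 3 and 11. On the log2(FPKM + 1) scale, 32 such genes had a median of 2.14 and 1.77 there relative to the wildtype mean. This median was 0.15 and 0.19 in knockouts 9 and 10, and between -0.08 and 0.08 in wildtype libraries. Of the 32 genes, 31 had positive differences between genotypes, with a median of 1.02 beside -0.08 for all tested genes. In limma 4 of them rose and 0 fell, where 2.7% of all tested genes were called higher and 11.7% lower. Differences that moved most when knockouts 3 and 11 were left out are also given without them. In RNA of whole liver, fewer cells of a type and less RNA per cell cannot be told apart.

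Sequence before the transcription start is shown for Slc3a1, Slc43a1 and Slc6a9, the 3 members with the largest positive differences between genotypes. RefSeq (GRCm38.p6) gave 13 start sites for 8 of the 10 genes; Slc7a2 and Slc38a3 had none in that table. Each line holds the 250 bases before a start, 5′ to 3′ on the gene's strand, and capitals mark a match to the C/EBP letters TTGCNNAA on either strand. Matches to other motifs are not marked. The windows are chr17:85028097-85028346 (plus strand), chr2:84840073-84840322 (plus strand) and, for 1 of the 3 starts of Slc6a9, chr4:117849100-117849349 (plus strand). The Slc6a9 window shown is the one with a C/EBP match, and its other starts have none.
Slc3a1: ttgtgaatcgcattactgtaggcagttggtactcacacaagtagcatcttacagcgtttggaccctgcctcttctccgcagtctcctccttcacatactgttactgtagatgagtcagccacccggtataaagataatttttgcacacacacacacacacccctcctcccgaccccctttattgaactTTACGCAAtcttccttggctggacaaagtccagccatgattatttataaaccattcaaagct
Slc43a1: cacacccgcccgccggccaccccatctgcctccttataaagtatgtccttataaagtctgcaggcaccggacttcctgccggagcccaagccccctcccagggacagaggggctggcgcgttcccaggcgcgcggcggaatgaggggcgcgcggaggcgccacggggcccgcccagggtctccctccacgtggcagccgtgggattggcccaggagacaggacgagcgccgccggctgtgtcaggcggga
Slc6a9: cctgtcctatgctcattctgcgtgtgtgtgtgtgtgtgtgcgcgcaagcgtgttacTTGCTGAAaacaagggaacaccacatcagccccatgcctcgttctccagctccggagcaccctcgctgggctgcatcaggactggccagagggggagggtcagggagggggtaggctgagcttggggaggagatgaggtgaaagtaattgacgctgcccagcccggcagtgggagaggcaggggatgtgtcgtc

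The C/EBP letters began 62 bases before the start of Slc3a1 and 194 bases before the start shown for Slc6a9, and occurred in 2 of the 13 windows and in 9.56% of all 32851 windows of the same length. The FoxO core letters TGTTTAC occurred in 0 of the 13 windows and in 3.17% of all windows. The letters CAAAACA of insulin response elements (5.56% of all windows), the C/EBP-ATF letters TGATGNAA (3.45%), the STAT letters TTCNNNGAA (7.02%) and the cAMP response letters TGACGTCA (1.55%) were in 0 of the 13 as well. A short NF-kappaB motif was in 2, those of Slc43a1 and of 1 start of Slc38a4, against 17.6% of all windows. GC content of the printed windows was 45.6% for Slc3a1, 70.8% for Slc43a1 and 60.8% for Slc6a9. A match describes letters only, and the absence of one says only that those letters are not in these 250 bases.

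The 10 genes spanned a wide range of expression. Slc38a3 was the most abundant, with a mean of 604.98 FPKM over the 8 libraries, followed by Slc38a4 at 231 and Slc7a2 at 44.4. The ranges of these 3 did not overlap, and Slc7a2 was above Slc3a1 in 7 of 8 libraries. Slc3a1 (23.7) and Slc38a2 (23.5) came next by this mean, but their order differed between libraries. Slc3a1 was the higher in 3 of 8 libraries, knockouts 3, 10 and 11. Slc38a2 was the higher in every wildtype library and in knockout 9. In wildtype libraries alone the mean of Slc3a1 was 8.49 FPKM, below Slc38a2 (28.9), Slc3a2 (9.60) and Slc16a10 (8.68). Slc3a2 (9.88), Slc6a9 (9.62), Slc16a10 (8.23) and Slc43a1 (4.21) had overlapping ranges in that order. Slc7a9 was listed at 0 in 7 of 8 libraries. Slc38a3 alone made up 59.8% to 67.4% of the summed FPKM of the 10 genes, and the sum itself ran from 769.6 to 1005 in wildtype and from 748.03 to 1273 in knockout libraries.

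**Figure D1:**
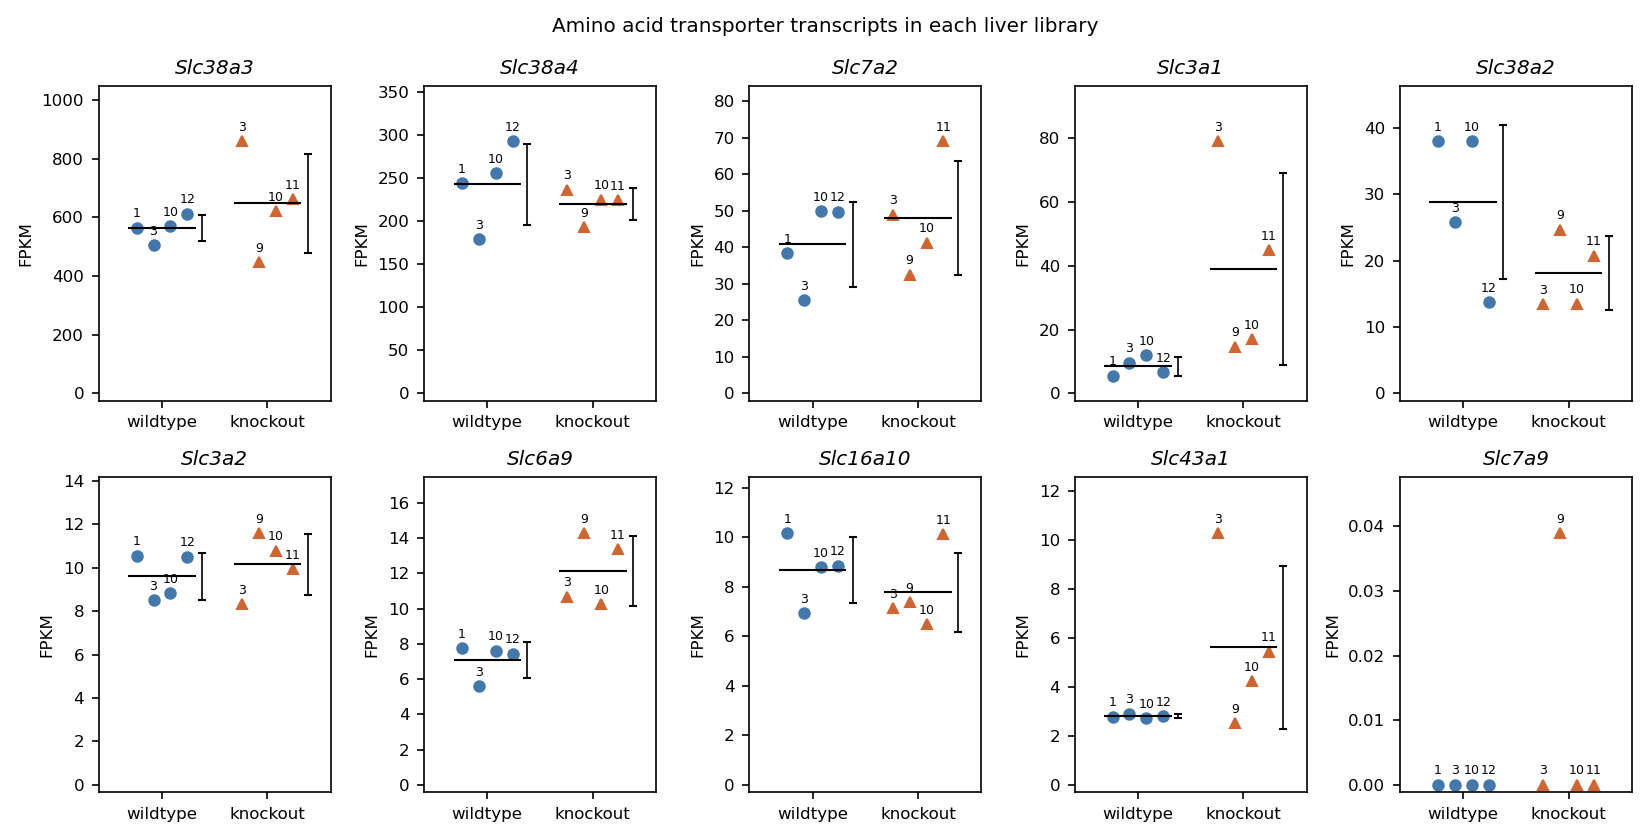
FPKM of each of the 10 transporter genes (vertical axes, linear, 1 panel per gene) in the 4 wildtype libraries (circles) and 4 knockout libraries (triangles), with the number in each title; horizontal bars are means and vertical bars SD (n = 4), left out for Slc7a9, which was listed at 0 in 7 of 8 libraries. The knockout libraries lie above all wildtype libraries for Slc3a1 and Slc6a9, as for 4.83% of all tested genes. Slc3a1 and Slc43a1 are highest in knockouts 3 and 11.

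Of the heavy chains, Slc3a1 was the higher in knockout liver and Slc3a2 did not differ beyond its spread. Slc3a1 (ENSMUSG00000024131), a protein-coding gene on the plus strand of chromosome 17 (85028376 to 85064236, mm10), was at 5.58, 9.68, 12.04 and 6.67 FPKM in wildtype 1, 3, 10 and 12. It was at 79.1, 14.6, 17.03 and 45 FPKM in knockouts 3, 9, 10 and 11. The groups did not overlap, and 4.83% of all tested genes had every knockout library above every wildtype library. Knockouts 3 and 11 were far above knockouts 9 and 10, which lay close to the highest wildtype library. The means were 8.49 ± 2.93 and 38.9 ± 30.1 FPKM (SD, n = 4), a 4.59-fold difference, and the log2 difference on the log2(FPKM + 1) scale was 1.80 (SE 0.49). Without knockouts 3 and 11 it was 0.87 (SE 0.27). Saa1, an acute phase gene, had 28413, 573, 266 and 33012 FPKM in knockouts 3, 9, 10 and 11, against 78.3 to 195 FPKM in wildtype libraries. Its part in the level of Slc3a1 was not tested.

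The end of Slc3a1 overlaps Prepl, a gene for a prolyl endopeptidase-like protein that lies on the opposite strand and ends toward it. The shared stretch is 767 bases long (chromosome 17, 85063470 to 85064236). Prepl was at 5.44, 7.68, 8.66 and 5.97 FPKM in wildtype 1, 3, 10 and 12 and at 22.4, 7.84, 8.91 and 16.1 FPKM in knockouts 3, 9, 10 and 11. The order of the libraries was thus almost that of Slc3a1, with the same pair highest, while knockout 9 lay within the wildtype range. The log2 difference of Prepl was 0.80 (SE 0.29), short of the threshold (limma adjusted p = 0.0999) except without knockout 9 (1.01, limma adjusted p = 0.0414). The difference was 0.26 without knockouts 3 and 11 (limma adjusted p = 0.404). The ratio of Slc3a1 to Prepl was 1.03 to 1.39 in wildtype libraries and 3.53, 1.87, 1.91 and 2.80 in knockouts 3, 9, 10 and 11, so Slc3a1 was higher relative to Prepl in every knockout library. The labels give no strand setting, and without strand reads of the shared stretch cannot be told apart.

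Slc3a2 (ENSMUSG00000010095, chromosome 19, 8706882 to 8723369, minus strand) was at 10.6, 8.50, 8.82 and 10.5 FPKM in wildtype 1, 3, 10 and 12. In knockouts 3, 9, 10 and 11 it was at 8.31, 11.6, 10.8 and 9.93 FPKM. The groups overlapped throughout, with means of 9.60 ± 1.09 and 10.2 ± 1.41 FPKM (SD, n = 4), and the log2 difference was 0.07 (SE 0.12, limma adjusted p = 0.734). Slc3a1 was 0.528 to 1.36 times the level of Slc3a2 in wildtype libraries and 9.52, 1.26, 1.58 and 4.53 times in knockouts 3, 9, 10 and 11, so that knockout 9 lay within the wildtype range.

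The light chains analysed here, which leave out Slc7a5, a main partner of Slc3a2, summed to less than the heavy chains. Slc7a9 (ENSMUSG00000030492, chromosome 7, 35448796 to 35466036, plus strand), the partner of Slc3a1 in kidney and gut, was listed at 0.039 FPKM in knockout 9 and at 0 in the other 7 libraries. It failed the filter of a mean of 1 FPKM and was not tested. Slc7a13, the other light chain known to pair with Slc3a1, did not exceed 0.0178 FPKM in any library. The SLC7 light chains in the table, 8 with Slc7a9, summed to 7.38 to 9.41 FPKM in wildtype and 8.54 to 11.9 FPKM in knockout libraries. The 2 heavy chains summed to 16.1 to 20.9 FPKM in wildtype and to 87.4, 26.2, 27.8 and 54.9 FPKM in knockouts 3, 9, 10 and 11. Of the other light chains analysed, Slc7a7 and Slc7a10, both partners of Slc3a2, had a mean of at least 1 FPKM. Slc7a7, which exports cationic amino acids, was at 1.04 to 1.35 FPKM in wildtype and 1.43 to 2.59 FPKM in knockout libraries. Its knockout libraries were all above its wildtype libraries, as for 4.83% of all tested genes. The log2 difference of Slc7a7 was 0.41 (SE 0.13, limma adjusted p = 0.0636). It passed only without knockout 11 (limma adjusted p = 0.0391), with library weights (0.0448) and with the trend along transcript length removed (0.0456). Slc7a10 was at 5.80 to 7.59 and 6.78 to 9.29 FPKM (0.18, SE 0.11, limma adjusted p = 0.332).

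Slc3a1 and Slc7a9 are best known from kidney and intestine, so markers of those tissues were read in the same libraries. Of 12 kidney tubule genes 0 reached a mean of 1 FPKM and Slc12a1, Kap and Aqp2 were listed at 0 throughout. Their summed level was 0.128 to 0.198 FPKM in wildtype and 0.129 to 0.208 FPKM in knockout libraries. Of 12 intestinal genes Sis, Alpi, Cdx1 and Cdx2 were listed at 0 in all 8 libraries, and 3 had a mean of at least 1 FPKM. The intestinal sum was 103 to 132 FPKM in wildtype and 71.5 to 99.0 FPKM in knockout libraries, most of it Fabp2 and Anpep. Among cells of the liver itself, 9 bile duct markers summed to 22.8 to 29.0 FPKM in wildtype and 28.0 to 59.3 in knockout libraries. The sums for 14 lymphocyte and neutrophil markers were 3.01 to 6.77 and 4.93 to 149.99 FPKM, and those for 11 sinusoidal endothelial markers 84.4 to 108 and 50.4 to 84.9 FPKM. Of the 14, 10 had a mean under 1 FPKM, so few genes make up that sum, and 0 of the 4 tested passed. Of 10 tested endothelial markers 3 fell and 0 rose, where 11.7% of all tested genes were called lower and 2.7% higher. The part of these cells in the transporter levels was not tested.

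Slc6a9 (ENSMUSG00000028542, chromosome 4, 117834506 to 117875198, plus strand), the glycine transporter gene, rose in knockout liver. It was at 7.74, 5.58, 7.62 and 7.44 FPKM in wildtype 1, 3, 10 and 12 and at 10.7, 14.3, 10.3 and 13.4 FPKM in knockouts 3, 9, 10 and 11. Every knockout library lay above every wildtype library, and knockout 9 was the highest. The part of the acute phase response in the level of Slc6a9 was not tested. The means were 7.10 ± 1.02 and 12.1 ± 1.99 FPKM (SD, n = 4), a 1.71-fold difference, and the log2 change was 0.70 (SE 0.14, limma adjusted p = 0.0113). Without knockouts 3 and 11 the change was 0.71 (limma adjusted p = 0.0486), where 1.94% of all tested genes were called higher and 6.4% lower. Slc6a9 was the 1 gene called among the 8 tested members other than Slc3a1, where 2.7% of all 10250 tested genes were called higher and 11.7% lower (limma, Benjamini-Hochberg adjusted p under 0.05). The counts were 277 higher and 1195 lower, and with median-ratio scaling 485 higher and 720 lower. Among all tested genes, 4.83% had every knockout library above every wildtype library.

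Parts of Slc6a9 overlap Ccdc24 and B4galt2 on the opposite strand. Ccdc24 was at 2.96, 2.64, 3.22 and 1.18 FPKM in wildtype 1, 3, 10 and 12 and at 2.79, 5.13, 3.24 and 4.41 FPKM in knockouts 3, 9, 10 and 11. These groups overlapped, and Ccdc24 did not pass (log2 difference 0.50, SE 0.23, limma adjusted p = 0.167). It was highest in knockouts 9 and 11, the pair that was also highest for Slc6a9, and its part in the level of Slc6a9 was not tested. B4galt2 did not exceed 0.249 FPKM.

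Slc43a1 (ENSMUSG00000027075, chromosome 2, 84838850 to 84863594, plus strand), which carries branched-chain amino acids and phenylalanine, differed mostly by a few knockout libraries. Wildtype 1, 3, 10 and 12 were close together, at 2.77, 2.91, 2.72 and 2.80 FPKM. Knockouts 3, 9, 10 and 11 were at 10.3, 2.53, 4.22 and 5.43 FPKM, so that 3 lay above the wildtype range and knockout 9 below it. The coefficient of variation was 2.86% in wildtype and 59.3% in knockout libraries. The log2 difference was 0.67 (SE 0.29) and did not pass (limma adjusted p = 0.152). It passed without knockout 9 (0.93, limma adjusted p = 0.0307), and without knockouts 3 and 11 it was 0.18 (limma adjusted p = 0.521).

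**Figure D2:**
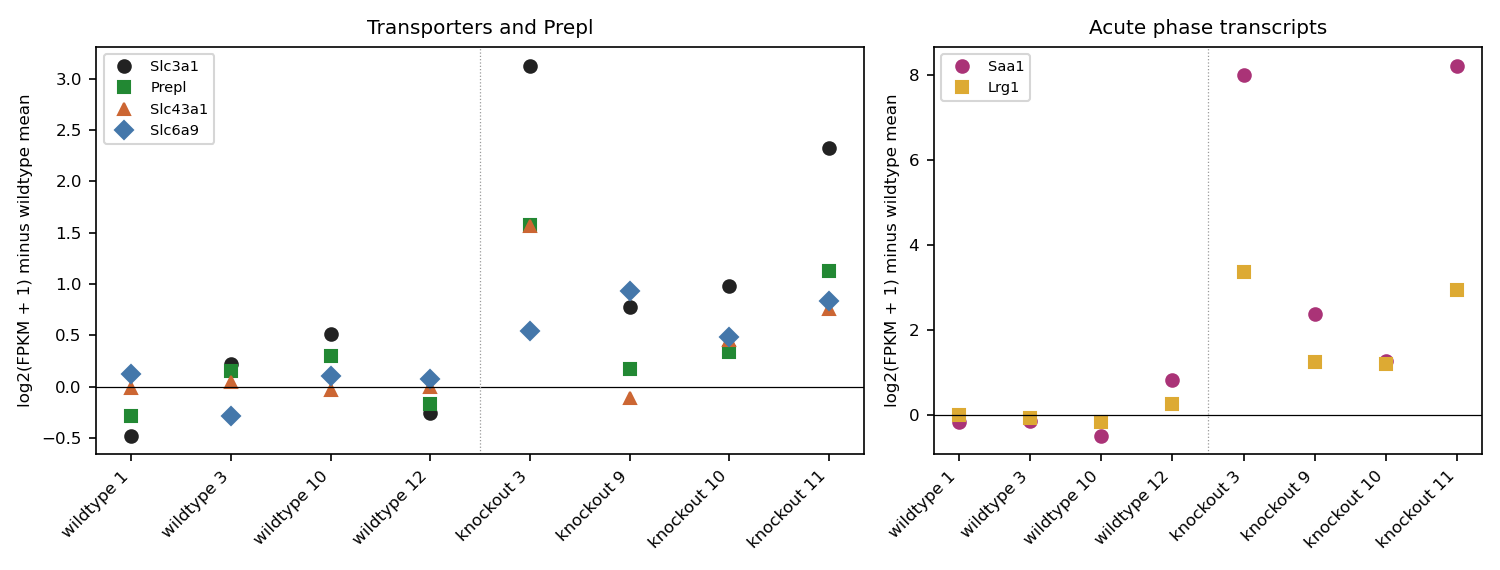
Level of Slc3a1, Prepl, Slc43a1 and Slc6a9 (left) and of the acute phase genes Saa1 and Lrg1 (right) in each library (horizontal axes), as log2(FPKM + 1) minus the mean of the 4 wildtype libraries (vertical axes, of different range). Slc3a1 stands 3.13, 0.77, 0.98 and 2.33 above the mean of the wildtype libraries in knockouts 3, 9, 10 and 11, while Slc6a9 stands between 0.48 and 0.93 above it in all 4.

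Slc16a10 (ENSMUSG00000019838, chromosome 10, 40033532 to 40142258, minus strand), the aromatic amino acid transporter gene, was at 10.2, 6.93, 8.78 and 8.84 FPKM in wildtype 1, 3, 10 and 12. In knockouts 3, 9, 10 and 11 it was at 7.14, 7.38, 6.49 and 10.1 FPKM. The groups overlapped and the log2 difference was -0.15 (SE 0.15, limma adjusted p = 0.552). Slc7a2 (ENSMUSG00000031596, chromosome 8, 40862396 to 40922308, plus strand), which carries arginine, lysine and ornithine, was at 38.4, 25.5, 50.0003 and 49.8 FPKM in the wildtype and at 49.0, 32.5, 41.2 and 69.1 FPKM in the knockout libraries. It did not pass (0.22, SE 0.26, limma adjusted p = 0.623), and without knockouts 3 and 11 the difference was -0.11. Knockout 11 was the highest knockout library for both genes.

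The SLC38 genes carried most of the transporter signal and 0 of the 3 passed. Slc38a3 (ENSMUSG00000010064, chromosome 9, 107650634 to 107669530, minus strand), the glutamine and histidine transporter gene, was at 564, 505, 570.3 and 612 FPKM in wildtype 1, 3, 10 and 12. In knockouts 3, 9, 10 and 11 it was at 858, 447, 621 and 662 FPKM, so the knockout libraries held both the highest and the lowest value. The log2 difference was 0.17 (SE 0.18, limma adjusted p = 0.584), and -0.09 without knockouts 3 and 11. Slc38a4 (ENSMUSG00000022464, chromosome 15, 96994820 to 97055956, minus strand), a neutral amino acid transporter gene typical of liver, was at 244, 179, 256 and 293 FPKM in wildtype libraries. In knockouts 3, 9, 10 and 11 it was at 237, 193, 225 and 225 FPKM, all within the wildtype range (-0.13, SE 0.15, limma adjusted p = 0.620).

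Slc38a2 (ENSMUSG00000022462, chromosome 15, 96687392 to 96699730, minus strand), which is known to be induced when amino acids are scarce, had the largest negative difference of the 10. It was at 38.0, 25.9, 38.0 and 13.7 FPKM in wildtype 1, 3, 10 and 12 and at 13.5, 24.7, 13.5 and 20.8 FPKM in knockouts 3, 9, 10 and 11. Wildtype 12 alone lay within the knockout range. The means were 28.9 ± 11.6 and 18.1 ± 5.58 FPKM (SD, n = 4), and the log2 difference of -0.59 (SE 0.32) did not pass (limma adjusted p = 0.253). Without wildtype 12 it was -0.90 (limma adjusted p = 0.0530). Wildtype 12 was also the lowest wildtype library for 2 genes of the fasting response. G6pc, which releases glucose, was at 26.2 FPKM there and at 194 to 228 FPKM in the other 3, and Igfbp1 at 11.6 and at 30.7 to 91.2 FPKM. Between genotypes G6pc (-1.55, limma adjusted p = 0.171) and Igfbp1 (-1.92, 0.0883) did not pass. Without wildtype 12 both passed as lower in knockout liver (-2.29, limma adjusted p = 0.0234, and -2.44, 0.0449). Their part in the level of Slc38a2 was not tested.

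**Figure D3:**
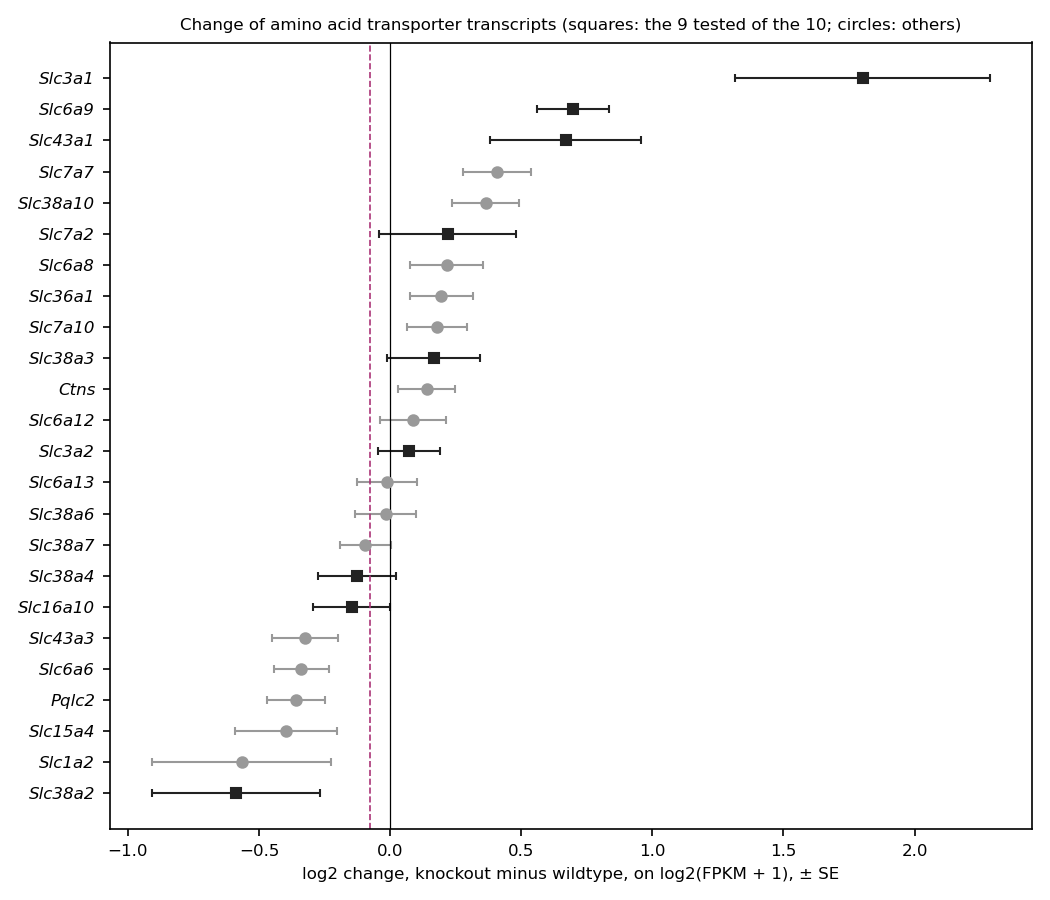
Log2 difference between knockout and wildtype liver on the log2(FPKM + 1) scale, ± SE (horizontal axis), for the 9 tested transporters described here (squares) and 15 other amino acid transporters (circles); the dashed line is the median of all tested genes, -0.08. Slc3a1, Slc6a9 and Slc43a1 lie furthest to the right, at 1.80, 0.70 and 0.67, and Slc38a2 furthest to the left at -0.59.

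In all, 9 of the 10 genes passed the filter, each with a wildtype mean above 1 FPKM. Of the 8 other than Slc3a1, 1 rose, 0 fell, 5 had positive and 3 negative differences, and their median was 0.12 beside -0.08 for all tested genes. Transcript length can matter in this table, since tested genes of 85 to 1155 bases had a median difference of -0.31. The 9 tested members have longest transcripts of 2271 to 7910 bases, and genes of like length had medians between -0.09 and 0.01.

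A wider list held 44 other amino acid transporters of the plasma membrane and lysosome, of which 15 were tested. In limma 0 of them rose and 0 fell, where 2.7% of all tested genes were called higher and 11.7% lower. Of the 15, 7 were positive and 8 negative. Their median was -0.01. The most abundant were Slc6a13 at 64.6 to 73.1 FPKM in wildtype and 56.2 to 79.1 in knockout libraries, a transporter of taurine and GABA, and Slc38a6 at 46.9 to 62.3 and 49.0 to 62.5 FPKM. Their log2 differences were -0.01 and -0.02. Slc6a12, a betaine transporter gene (0.09), and Slc38a10 (0.36, limma adjusted p = 0.0895) did not pass. The glutamate transporter gene Slc1a2 was at 22.5, 18.3, 9.28 and 21.96 FPKM in wildtype and at 8.09, 12.1, 21.05 and 7.496 in knockouts 3, 9, 10 and 11 (-0.57, SE 0.34, limma adjusted p = 0.304). Its groups overlapped, knockouts 3 and 11 were the lowest libraries, and without them the difference was -0.0925 (limma adjusted p = 0.90). Slc6a6, the taurine transporter gene, was at 9.06 to 10.1 FPKM in wildtype and 6.36 to 8.42 in knockout libraries. Its knockout libraries were all below its wildtype libraries, as for 16.5% of all tested genes. Slc6a6 just missed the threshold (-0.34, SE 0.10, limma adjusted p = 0.0586). It passed without knockout 9 (0.0357), with library weights (0.0441), with the length trend removed (0.0258) and with the filter raised to 5 FPKM (0.0434). The difference was -0.18 without knockouts 3 and 11 (limma adjusted p = 0.253). A total of 29 genes of this list had a mean under 1 FPKM, among them Slc7a1 and Slc1a5, and Slc7a5 was not analysed here.

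Genes of the response to amino acid shortage, in which the transcription factor ATF4 induces transporters and synthetic enzymes, did not share a direction. Of 22 tested genes 2 rose and 2 fell, where 2.7% of all tested genes were called higher and 11.7% lower, and their median was 0.00 beside -0.08 for all tested genes. Asns, which makes asparagine from glutamine, rose from 0.729, 1.17, 1.31 and 2.31 FPKM in wildtype 1, 3, 10 and 12 to 9.50, 5.21, 2.61 and 5.49 FPKM in knockouts 3, 9, 10 and 11 (log2 change 1.43, SE 0.30, limma adjusted p = 0.0150). Chac1, which degrades glutathione, rose by 0.77 (SE 0.19, limma adjusted p = 0.0242). Trib3, a pseudokinase gene, fell from 4.35 to 14.3 FPKM across wildtype libraries to 0.951 to 2.003 FPKM across knockout libraries (-1.81, SE 0.30, limma adjusted p = 0.00621). Atf4 itself fell by 0.51 on the log2 scale (SE 0.15, limma adjusted p = 0.0491). Without knockouts 3 and 11 Asns (1.03, limma adjusted p = 0.0725), Chac1 (0.53, 0.114) and Atf4 (-0.34, 0.225) did not pass. Atf4 did not pass without any single library but knockout 9 (limma adjusted p up to 0.125), and Chac1 lost its call when wildtype 1, 3 or 12, or knockout 3 or 11, was removed (up to 0.0603). With median-ratio scaling Atf4 did not pass either (0.096).

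Of 42 enzymes that use the transported amino acids 1 rose and 6 fell, shares near the 2.7% higher and 11.7% lower of all tested genes, and their median was -0.17 beside -0.08. Glul, which makes glutamine, rose from 117 to 145 FPKM across wildtype libraries to 170 to 187 FPKM across knockout libraries (log2 change 0.43, SE 0.10, limma adjusted p = 0.0218). It did not pass without wildtype 3 (0.0576) or wildtype 10 (0.0698), nor without knockouts 3 and 11 together (0.0943). Otc, the ornithine carbamoyltransferase of the urea cycle, fell by 0.63 on the log2 scale (SE 0.12, limma adjusted p = 0.0118), and did not pass with quantile normalization (0.0721). Cth, which makes cysteine from cystathionine, fell by 0.71 (SE 0.15, limma adjusted p = 0.0158). Its call was lost without wildtype 1 (0.0539), with median-ratio scaling (0.0679), with quantile normalization (0.0721) and with the length trend removed (0.0647). Arg1, which splits the arginine that Slc7a2 carries, was at 1079 to 1209 FPKM in wildtype and at 1283, 774, 856 and 1443 FPKM in knockouts 3, 9, 10 and 11. It did not pass (-0.16, SE 0.20, limma adjusted p = 0.644), but did so without knockouts 3 and 11 (-0.53, limma adjusted p = 0.0251). Like Slc7a2, it was lower in knockouts 9 and 10 than in knockouts 3 and 11.

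Of 15 tested genes of glucagon and insulin signalling, 1 rose (Akt1, 0.29, limma adjusted p = 0.0448) and 3 fell (Foxo1, Insr and Gcgr), with a median of -0.25. Of all tested genes, 2.7% were called higher and 11.7% lower. Foxo1 is the deleted gene, so its fall was set by the design and says nothing about the list. The count and the median include it, and the only other genes that fell were Insr and Gcgr. Akt1 lost its call without any single library but knockout 11 (limma adjusted p up to 0.131), and without knockouts 3 and 11 together (0.098). The glucagon receptor gene Gcgr was at 121 to 123 FPKM in wildtype and 91.8 to 109 in knockout libraries (-0.32, SE 0.08, limma adjusted p = 0.0347). The insulin receptor gene Insr was at 8.84 to 9.67 and 6.88 to 7.83 FPKM (-0.32, SE 0.08, limma adjusted p = 0.0274). Neither pair of groups overlapped, which held for 21.3% of all tested genes in either direction, and 14.4% of tested genes were called. Gcgr did not pass without any single library but knockout 10 (limma adjusted p up to 0.0977), and Insr lost its call when wildtype 1, 10 or 12, or knockout 3 or 11, was left out (up to 0.0854). Without knockouts 3 and 11 together neither passed (0.12 and 0.106), where 8.34% of genes were called, nor did they with median-ratio scaling (0.142 and 0.0683).

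Across the 8 libraries the 6 tested genes whose log2(FPKM + 1) followed Slc3a1 most closely were Ano10 (Pearson r = 0.994), Prepl (0.99), Tpst1 (0.983), Glb1 (0.976), Cfi (0.97) and Isyna1 (0.969). Isyna1 had a range like that of Slc3a1, with 1.17 to 1.75 FPKM in wildtype libraries and 17.8, 2.93, 2.26 and 11.5 FPKM in knockouts 3, 9, 10 and 11. Ano10 ran only from 2.80 to 3.44 and was at 6.32, 3.81, 4.02 and 5.02 FPKM in the same order. Of the other transporters, Slc43a1 was the nearest (r = 0.912, rank 94 of all tested genes), followed by Slc38a3 (0.698), Slc6a9 (0.608) and Slc7a2 (0.483). Slc38a2 (-0.46), Slc3a2 (-0.38), Slc16a10 (-0.20) and Slc38a4 (-0.13) had negative values, all weak for 8 libraries. These values describe 8 libraries that differ in genotype and in acute phase level at once.

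**Figure D4:**
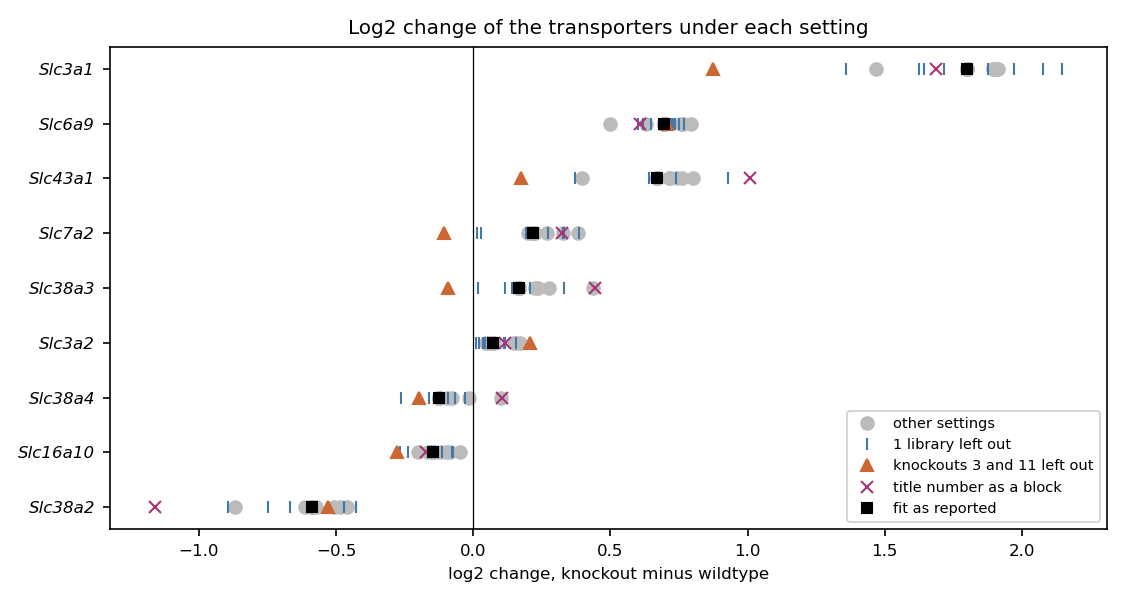
Log2 difference between knockout and wildtype liver (horizontal axis) of the 9 tested transporters in the fit as reported (black squares), with 1 library left out (ticks), with knockouts 3 and 11 left out (triangles), with the title number as a block (crosses) and under the other settings (grey circles). Slc6a9 stays between 0.50 and 0.80, Slc3a1 spans 0.87 to 2.15, and Slc7a2 and Slc38a3 are below 0 without knockouts 3 and 11.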

How the data were processed

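Liver RNA was sequenced in 4 wildtype and 4 Foxo1 knockout libraries after Trizol extraction, DNase treatment and column purification, per the labels' protocols. The authors deposited FPKM per Ensembl gene, a unit read from the values. Per the submitters' processing notes, TopHat2 2.1.0, HTSeq, Cufflinks 2.2.1 and the build mm10 were used, with no role stated; the annotation and strandedness are not given in the labels. A listed 0, which may be a failed estimate, was kept as 0. Depth was estimated from genes with 1 transcript over 1500 bases, as the depth at which each FPKM would equal a single fragment. Only values within a range set in advance were kept, which bounds the estimate, and their median was taken. Names, coordinates and lengths came from GENCODE M21 (24807 genes named), and promoter windows from RefSeq GRCm38.p6.

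A mean of 1 FPKM or more was required (10250 genes). Genotype alone was modelled on log2(FPKM + 1) by limma 3.58.1 (R 4.3.3) with trended variances, and two-sided p-values were adjusted by Benjamini-Hochberg (threshold 0.05). This scale understates changes of low genes. The members, gene lists and tests were chosen with earlier results of these data known. Named by rule were Foxo1, the 10 transporters, the 6 most abundant other transporters (1 is not reported here and was taken out of the list), up to 5 passing genes of each other list, Saa1, Atf4, Asns, Gcgr and Arg1, and the 6 genes most like Slc3a1; cell type lists are given as sums. Prepl, Ccdc24, B4galt2, Slc7a7, Slc7a10, Slc7a13, Slc6a6, G6pc, Igfbp1, Anpep, Fabp2 and Reg3b were chosen for naming after seeing their values. The fit was checked on simulated data. The pseudocount, filter, scaling and variance model were each varied, as were library weights, a block for the title number and the libraries included. Of the listed genes 2 were not analysed here.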

Additional observations from a re-analysis of the deposited data

Results flagged for a closer look

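In groups of 4 libraries, a value was singled out where its gap to the nearest other library was larger than Dixon's 95% critical share of the group's range. Of 73 groups of named genes 5 met this, and chance gives about 1 in 20. Slc7a9 was at 0.039 FPKM in knockout 9 and listed at 0 in the other 3 knockout libraries. Slc6a9 was at 5.58 FPKM in wildtype 3 and at 7.44 to 7.74 in the other wildtype libraries, and its log2 change without wildtype 3 was 0.60 (limma adjusted p = 0.0290). Slc38a10 was at 23.4 FPKM in knockout 3 and at 17.5 to 17.7 in the other knockout libraries. Arg1 was at 1079 FPKM in wildtype 1 and at 1203 to 1209 in the other wildtype libraries. G6pc was at 26.2 FPKM in wildtype 12 and at 194 to 228 in the other wildtype libraries.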

How the results depend on the processing

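Total counts, counts of other transporters and the differences of most named genes were recomputed under 21 alternatives, or 20 for 6 genes with a mean under 5 FPKM. Ccdc24, the other list counts, motif matches and correlations were not. Slc6a9 passed under 20 of them (0.50 to 0.80), Slc3a1, selected for its rise, ran from 0.87 to 2.15, and Slc38a2 passed under 0. Genes higher numbered 277, and 516 with the length trend removed, 485 with median-ratio scaling, 470 with quantile normalization and 102 to 360 with 1 library left out. Genes lower numbered 1195, and 594, 720 and 652 under the same 3 settings, 656 without knockouts 3 and 11, and 599 to 1294 with 1 library left out. Of the other transporters 0 were higher, against 1 with the length trend removed, with library weights, with no filter or with quantile normalization and 0 to 1 with 1 library left out; 0 were lower, against 1 with the length trend removed, 2 with library weights or a mean of at least 5 FPKM and 0 to 1 with 1 library left out. The title numbers 3 and 10 occur in both groups, but the deviations of same-numbered libraries correlated at -0.0079 and 0.022, and the labels do not pair them. With that number as a block 1 gene was higher and 1 lower, and Slc6a9 did not pass (0.61, limma adjusted p = 0.279). The directions that reversed were of genes that had not passed. Without knockouts 3 and 11 Slc38a3 was at -0.0919, Slc7a2 at -0.11, Slc38a6 at 0.11, Slc6a12 at -0.12 and Slc6a13 at 0.15. With the length trend removed Arg1 was at 0.0402, Slc38a6 at 0.0318 and Slc6a13 at 0.10. With median-ratio scaling Slc38a6 was at 0.0900 and Slc6a13 at 0.10, and with quantile normalization Slc38a4 was at 0.10, Slc38a6 at 0.16 and Slc6a13 at 0.17. With the block Slc38a4 was at 0.11 and Slc1a2 at 0.0065. With 1 library left out Slc38a6 ran from -0.0876 to 0.0468, Slc6a12 from -0.0126 to 0.158 and Slc6a13 from -0.0776 to 0.0848. The cause was not tested. FPKM keeps no read count per gene, so counting error of single values is unknown.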

Other observations

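Anpep, which encodes a peptidase of the cell surface that frees single amino acids from peptides, rose in knockout liver. It was at 17.8, 15.6, 20.4 and 17.6 FPKM in wildtype 1, 3, 10 and 12 and at 43.4, 27.0, 27.4 and 34.6 FPKM in knockouts 3, 9, 10 and 11. Every knockout library was above every wildtype library, as for 4.83% of all tested genes. Knockouts 3 and 11 were the highest, as for Slc3a1. The log2 change was 0.83 (SE 0.16, limma adjusted p = 0.00994). Anpep was taken from a list of 12 intestinal genes, of which 3 were tested, 1 rose and 1 fell, where 2.7% of all tested genes were called higher and 11.7% lower. The gene that fell was Fabp2, a fatty acid binding protein gene, at 87.6 to 114 FPKM in wildtype and at 20.2, 58.5, 71.5 and 25.1 FPKM in knockouts 3, 9, 10 and 11 (-1.32, SE 0.36, limma adjusted p = 0.0393). Fabp2 did not pass without any single library but knockout 9 or 10 (limma adjusted p up to 0.104), and without knockouts 3 and 11 together its change was -0.58 (limma adjusted p = 0.0454). Reg3b, the third, was listed at 0 in 6 libraries and was at 15.9 and 10.7 FPKM in knockouts 3 and 11.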
